A study of Mus musculus with 16 samples.

Results

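Vitamin B12 added to cells under hypoxia and reperfusion was examined by setting 4 arrays of BU.MPT cells treated with hypoxia/reperfusion and B12 (H/R+B12) against 4 arrays of the same cells under hypoxia/reperfusion alone (H/R). These are 8 of the 16 arrays of the study, chosen by their sample titles, and all 22206 probe sets that are not control features were compared. BU.MPT is a conditionally immortalized mouse proximal tubular cell line, here 1 line grown to near confluence at 39 °C without interferon-γ. H/R cells spent 3 h at about 1% oxygen in medium without glucose or serum, then 1 h at 21% oxygen with 4.5 g/L glucose and 10% serum restored. H/R+B12 cells went through the same steps with 0.3 µM cyanocobalamin, the stable cyanide-bound form of vitamin B12. The other 8 arrays were cells in normal culture without (control) and with (control+B12) the same 0.3 µM cyanocobalamin, 4 arrays each. For the H/R+B12 group the labels place the vitamin in the hypoxic medium, and they do not say whether it was also present before or after. Every H/R+B12 sample is titled B12, but the descriptions count upward from B12 to B15 over replicates 1 to 4, and the titles were followed. Whether each replicate came from its own culture is not stated, and p-values therefore cover only the spread between these samples, which may be technical.

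Cobalamin is carried in blood by transcobalamin and enters cells through the receptor CD320. In the proximal tubule the megalin, cubilin and amnionless complex also takes filtered vitamin back from the urine. Inside the cell LMBD1 and ABCD4 pass it out of the lysosome, MMACHC strips its upper ligand, including the cyanide of cyanocobalamin, and the vitamin ends as the cofactor of methionine synthase (Mtr) in the cytosol and of methylmalonyl-CoA mutase (Mmut) in mitochondria. Cobalamins have also been described as scavengers of superoxide, a radical that forms when oxygen returns to starved tissue. The comparison asks what the added vitamin changed in the transcripts of H/R cells, above all in genes of stress, cell death, inflammation and cobalamin handling.

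3 promoter stretches are shown for genes described below, none of which passed the test with B12. The genes are Mmachc, the first enzyme that added cyanocobalamin meets in the cytosol, Mtr, which uses the finished cofactor, and Hspa1b. Hspa1b is the gene of the lists described here with the largest rise after H/R. The stretches are from RefSeq, build GRCm38.p6, written 5′ to 3′ on the gene's own strand, which is the minus strand for all 3 genes. In the Mmachc stretch at chr4:116708386-116708443 and the Mtr stretch at chr13:12258259-12258338, capitals mark a match to ACTACA, any 2 bases, TCCC, searched on both strands. These are the core letters of a site known for the transcription factors ZFP143 and THAP11, and THAP11 with its partner HCFC1 is known to control Mmachc. In the Hspa1b stretch at chr17:34959301-34959376, capitals mark a heat shock element core of GAA, any 2 bases, TTC, a motif that reads alike on both strands.
Mmachc: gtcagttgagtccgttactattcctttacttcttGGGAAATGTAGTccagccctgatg
Mtr: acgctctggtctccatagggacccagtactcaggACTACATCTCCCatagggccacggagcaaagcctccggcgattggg
Hspa1b: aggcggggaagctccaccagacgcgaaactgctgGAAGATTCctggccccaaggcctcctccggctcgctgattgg

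The Mmachc match lies on the opposite strand at positions -24 to -13 from the start site, the Mtr match at -191 to -180 and the Hspa1b match at -104 to -97. The first motif was found in 595 of 32851 RefSeq promoters of 300 bases (1.81%), which belong to 2.08% of genes. It was found in 2 of the 21 cobalamin uptake and cofactor genes that have a promoter entry, Mtr and Mmachc, which are the 2 shown. The heat shock core was found in 2582 promoters (7.86%), which belong to 9.04% of genes, and in 11 of 23 heat shock genes. The matches shown lie in different promoters and so do not overlap, and a match is a run of letters, not a measured site.

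The authors' normalization, RMA, sets all arrays to 1 distribution, so near-equal medians are no sign of likeness between the 8 arrays. Their probe set medians ran from 5.21 to 5.29 (log2) and differed by -0.0083 between H/R+B12 and H/R (two-sided exact permutation p = 0.629; with 4 against 4 arrays the smallest possible p is 0.0286). The medians of the features that the array names as negative controls lay between 5.86 and 6.23 and differed by -0.112 (exact permutation p = 0.257). That test takes no account of replicate numbers. For replicates 1 to 4 the medians were 6.17, 5.99, 5.87 and 5.86 in H/R+B12 beside 6.23, 6.21, 6.03 and 5.88 in H/R. Matched by number each H/R+B12 array was thus the lower, which was not tested. The highest of the 8 medians, 6.23, is called the negative control level here. A mean above it over the 8 arrays was found in 10209 probe sets (46.0%). In 104 of these, 3 of them genes of the lists below, the mean of 1 of the groups alone was above it, so that a difference between the groups itself helped to place them there. A difference in a gene that is not above this level is a difference in signal that may hold little of the gene's RNA. Across probe sets the arrays correlated at 0.9916 to 0.9938 within H/R, 0.9912 to 0.9930 within H/R+B12 and 0.9908 to 0.9933 between the groups. Of the tubule and other cell type markers, 8 of 27 proximal tubule genes, 2 of 20 distal nephron genes, 1 of 14 fibroblast genes, 0 of 13 endothelial genes, 2 of 15 leukocyte genes and 3 of 5 podocyte genes were above it, so many defining markers of the labelled segment, Lrp2 and Cubn among them, were not.

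No gene passed the test with B12 under H/R. The arrays measure RNA of whole cultures, so fewer cells with a transcript and less of it per cell cannot be told apart. Among the 22206 probe sets 0 were higher (0%) and 0 lower (0%) at an adjusted p under 0.05 by limma, and 0 passed at 0.1. The smallest adjusted p was 0.255. At an unadjusted p under 0.05 there were 1010 probe sets (4.55%), 523 of them higher and 487 lower with B12, and 284 of the 10209 above the negative control level (2.78%). The 4 B12 arrays lay wholly above or wholly below the 4 H/R arrays in 637 probe sets (2.87%), in 307 above and in 330 below.

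How large a change the data still allow is given by the 95% interval of each difference. The bound of a gene is used here for the end of that interval farther from 0. For 19871 probe sets (89.5%) both ends lay within log2 1, a 2-fold change in either direction, and for 6516 (29.3%) within log2 0.5, a 1.41-fold change. Among probe sets above the negative control level the shares were 97.6% (9966 probe sets) and 53.8% (5492). The median bound was log2 0.625, or 1.54-fold, and it was 1.40-fold above the negative control level and 1.68-fold at or under it. With the probe sets ranked by signal in 4 parts of equal size, from dimmest to brightest, the median bounds were log2 0.69, 0.80, 0.64 and 0.40, so the bound was tightest for the brightest genes. For scale, the median size of the difference was log2 0.141 with B12 under H/R and log2 0.259 for H/R against control, in which 3919 probe sets passed the test (17.6%), 1801 higher (8.11%) and 2118 lower (9.54%). Estimates of at least 2-fold numbered 23 with B12, 4 of them with a mean over the 8 arrays above the negative control level, against 1159 after H/R. H/R against control shares the 4 H/R arrays with the B12 comparison, so its values are only set beside the others for scale.

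**Figure D1:**
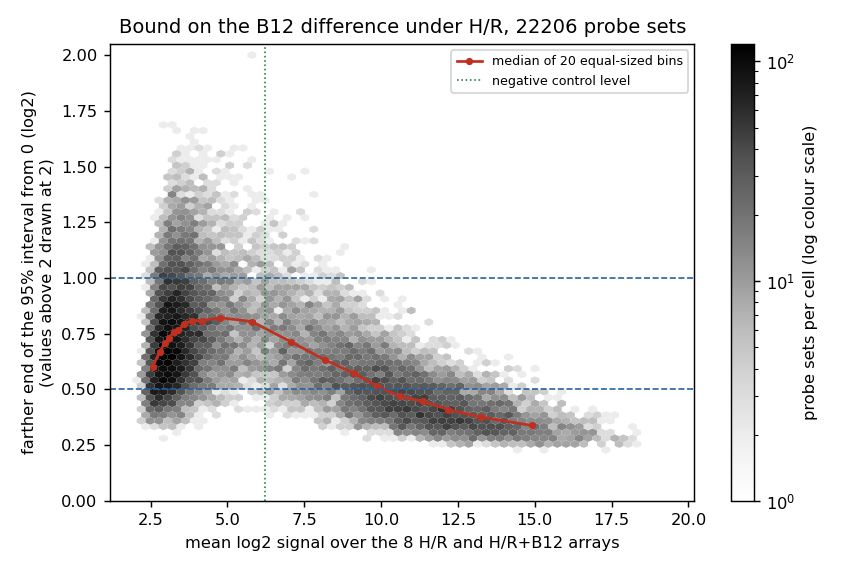
Bound on the B12 difference under H/R (vertical axis, the farther end of the 95% interval from 0, log2) against the mean log2 signal over the 8 H/R and H/R+B12 arrays (horizontal axis) for 22206 probe sets; grey cells count probe sets on a log colour scale. Red points are medians of 20 equal-sized bins, the dotted line is the negative control level of 6.23, and dashed lines mark log2 0.5 and 1. The bound falls as signal rises above the negative control level, and 89.5% of probe sets lie under log2 1.

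The 5 named genes with the smallest p in each direction are given as values that did not pass. The smallest p among the higher genes was that of Dtd1, which encodes an enzyme that removes D-amino acids from mischarged tRNA. Its log2 signal was 7.02, 7.34, 7.21 and 7.58 in the H/R arrays and 8.27, 7.96, 8.34 and 8.16 in the H/R+B12 arrays, a difference of 0.90 ± 0.15 (SE, n = 4 against 4; unadjusted p = 2.06e-05, adjusted p = 0.255 by limma). Each B12 array was above every H/R array. In normal culture Dtd1 differed by -0.17 with B12, and from control to H/R it fell by 1.17. Its mean was 8.18 ± 0.17 (SD, n = 4) in H/R+B12 beside 8.46 in control. The fall and the B12 difference share the 4 H/R arrays, and Dtd1 was picked by its B12 difference. These values are therefore only set side by side, and a return towards control was not tested.

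Acss2, the enzyme that makes acetyl-CoA from acetate in cytosol and nucleus, read 5.84, 6.35, 6.10 and 5.92 in H/R and 6.63, 7.18, 7.42 and 6.78 in H/R+B12, a difference of 0.95 ± 0.21 (unadjusted p = 0.000352, adjusted p = 0.714 by limma). Nudt11, an inositol pyrophosphate phosphatase that was not above the negative control level, read 5.40, 4.17, 4.56 and 4.48 in H/R and 5.52, 5.98, 6.24 and 5.98 with B12 (1.28 ± 0.23, adjusted p = 0.255 by limma). In both genes the groups did not overlap, and in Nudt11 H/R replicate 1 stood nearest to the B12 arrays. Without H/R replicate 1 Nudt11 was at 1.53 with an adjusted p of 0.0166 by limma, the only probe set called when any 1 of the 8 arrays was left out. Meikin, a meiotic kinetochore protein (1.03 ± 0.19), and the HMG-box factor Tox2 (0.62 ± 0.14) were also higher in every B12 array and were not above the negative control level.

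Pstpip1, an adaptor that links phosphatases to the actin cytoskeleton, had the smallest p among the lower genes. It read 7.94, 8.05, 8.25 and 7.97 in H/R and 7.23, 7.13, 6.76 and 6.89 in H/R+B12, a difference of -1.05 ± 0.20 (unadjusted p = 6.10e-05, adjusted p = 0.255 by limma), with no overlap. In normal culture it differed by -0.51 ± 0.20 with B12 (adjusted p = 0.831 by limma). Plekha5, which binds membrane phosphoinositides, read 8.43, 7.60, 7.43 and 7.74 in H/R and 7.18, 6.96, 6.79 and 6.34 with B12 (-0.98 ± 0.23, adjusted p = 0.778 by limma), and in normal culture it differed by 0.34, the other way. The lipase relative Pnliprp2 (-0.85), the RNase P protein relative Rpp25l (-0.94) and the potassium channel subunit Kcns3 (-0.72) were lower in every B12 array and were not above the negative control level. Of these 10 genes 4 were above it: Dtd1, Acss2, Pstpip1 and Plekha5. Acss2 was above it only through the B12 arrays, since its H/R mean was 6.05.

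**Figure D2:**
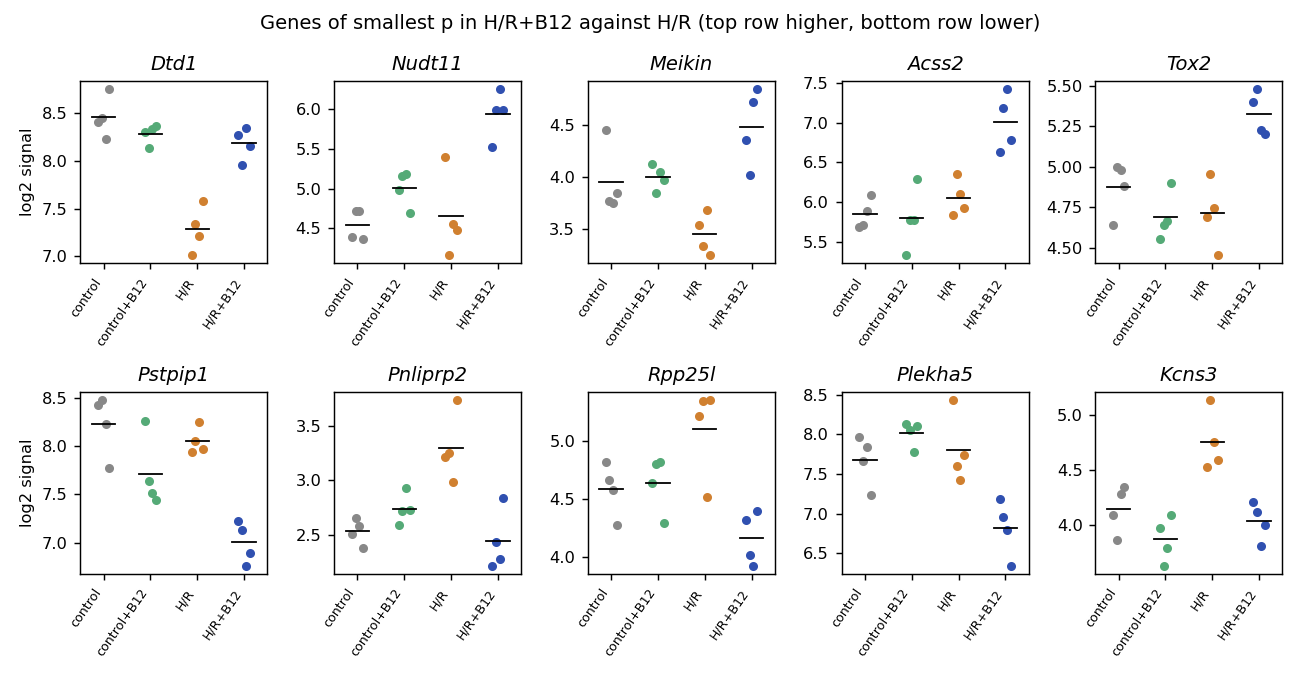
Log2 signal (vertical axis, a scale of its own in each panel) of the 5 higher and 5 lower named genes with the smallest p in H/R+B12 against H/R, in the 4 groups; each point is 1 array and each line a group mean. In all 10 panels the 4 H/R+B12 points lie wholly above or wholly below the 4 H/R points, and none of the 10 passed the adjusted test.

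For the stress, death, inflammation and cobalamin genes the result was a set of bounds. The 21 lists hold 498 genes, of which 460 had a named probe set and 346 were above the negative control level. None of the 460 passed. Their median difference was 0.023 log2 beside -0.00080 over all probe sets, with 248 estimates above 0 and 212 under it. At an unadjusted p under 0.05 there were 18 (3.91%, beside 4.55% of all probe sets), 12 higher and 6 lower, and 8 of the 346 above the negative control level (2.31%, beside 2.78%). Groups did not overlap in 23 of the 460 (5.00%, beside 2.87%), 14 higher and 9 lower.

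Of the 346 genes above the negative control level, 340 (98.3%) were bounded within 2-fold and 197 (56.9%) within 1.41-fold, shares near those of all such probe sets (97.6% and 53.8%). The 6 that were not bounded within 2-fold were named after their values were seen: Sesn2, Mt2, Bok, Myd88, Rsad2 and Cth. Bok was above the level only through the H/R arrays (mean 6.64, beside 6.14 in H/R+B12). Cth was above it only through the B12 arrays (mean 6.43, beside 6.18 in H/R). For the other 114 genes the bound is on a signal that was not above the negative control level.

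**Figure D3:**
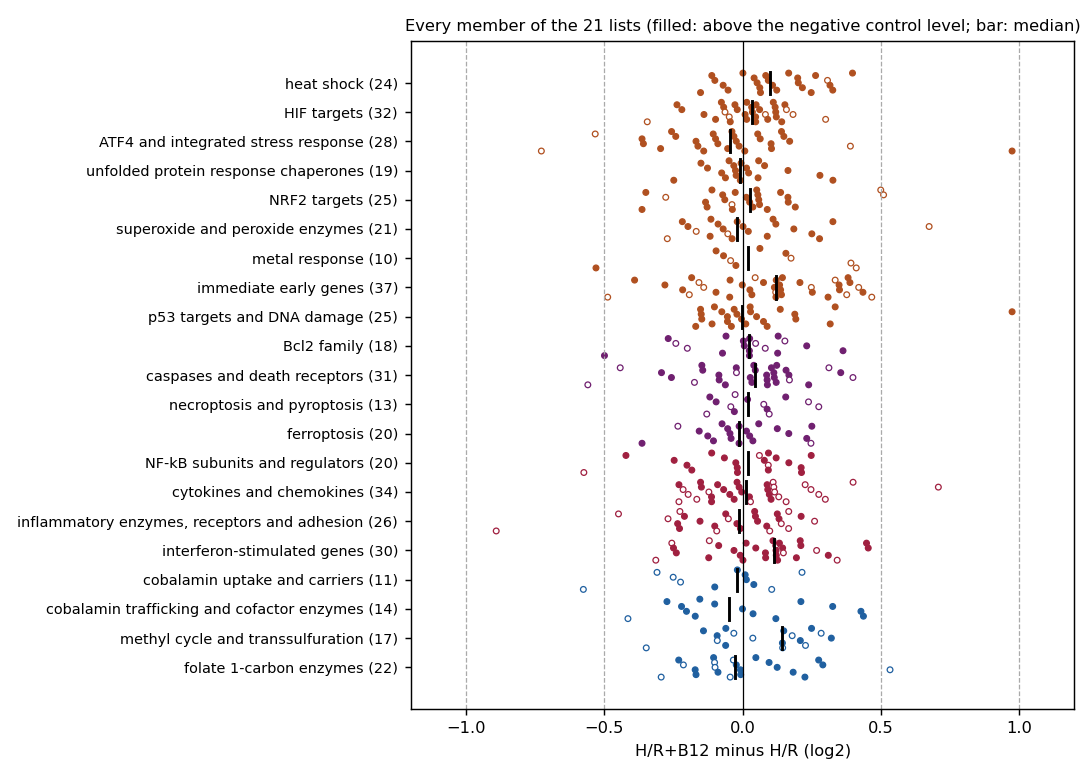
Log2 difference H/R+B12 minus H/R (horizontal axis) of every measured member of the 21 lists (vertical axis, number of members in brackets); filled points are genes above the negative control level, open points are not, and bars are list medians. List medians lie between -0.051 and 0.144, and Sesn2, in 2 lists, stands at 0.97.

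Among the genes of cobalamin uptake and carriage, those above the negative control level differed little with B12. Transcobalamin, Tcn2, read 13.93, 13.82, 14.05 and 13.97 in H/R and 13.78, 13.77, 13.84 and 13.97 in H/R+B12, a difference of -0.10 (95% interval -0.45 to 0.25). Its receptor Cd320 read 8.62, 9.35, 9.31 and 9.42 in H/R and 9.24, 9.03, 9.45 and 9.15 with B12, a difference of 0.041 (-0.35 to 0.43). The groups overlapped in both genes, and H/R replicate 1 was the lowest array for Cd320. The lysosomal membrane protein Lmbrd1 was bounded within 1.22-fold (0.0092, -0.27 to 0.29) and Abcc1, which exports cobalamin from cells, within 1.19-fold (0.014, -0.23 to 0.26), the tightest of the list. Lrp1, a relative of megalin, was at -0.019 (-0.45 to 0.41).

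Abcd4, the lysosomal transporter that works with Lmbrd1, was the 1 member of 11 with an unadjusted p under 0.05. It read 6.06, 5.99, 6.25 and 6.71 in H/R and 5.59, 5.96, 5.31 and 5.84 in H/R+B12, a difference of -0.58 ± 0.23 (unadjusted p = 0.0245, interval -1.07 to -0.084), with no overlap, and it was not above the negative control level. Megalin, Lrp2 (-0.25, -0.74 to 0.23), cubilin, Cubn (-0.31, -0.88 to 0.26), and amnionless, Amn (-0.22, -0.86 to 0.42), the tubular uptake complex, were all 3 at signals not above the negative control level, as were the intrinsic factor gene Cblif (0.11) and the hepatic asialoglycoprotein receptor Asgr1 (0.21). The list median was -0.019, and 10 of 11 members were bounded within 2-fold.

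The cobalamin trafficking proteins and cofactor enzymes were 14 measured genes, all bounded within 2-fold and 4 within 1.41-fold. Mmachc, whose promoter is shown, read 9.09, 9.15, 9.97 and 9.27 in H/R and 9.30, 9.48, 8.73 and 9.27 in H/R+B12, a difference of -0.17 (-0.59 to 0.25). Methionine synthase, Mtr, the gene of the other promoter stretch, read 9.88, 9.67, 9.79 and 10.00 in H/R and 9.98, 9.50, 9.44 and 9.54 with B12, a difference of -0.22 (-0.59 to 0.14). The groups overlapped in both. Its reductase Mtrr was at 0.21 (-0.22 to 0.64), and Mmadhc, which directs cobalamin to its 2 enzymes, at 0.038 (-0.29 to 0.36).

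Methylmalonyl-CoA mutase, Mmut, read 10.83, 11.08, 10.99 and 10.97 in H/R and 10.75, 10.68, 10.81 and 10.54 in H/R+B12. Every B12 array was under every H/R array, and the difference was -0.27 ± 0.13 (unadjusted p = 0.0581, interval -0.56 to 0.011). Its chaperone Mmaa read 6.80, 6.98, 7.02 and 6.34 in H/R and 6.99, 7.06, 7.55 and 7.28 with B12, a difference of 0.44 (unadjusted p = 0.0509, -0.0019 to 0.88). The adenosyltransferase Mmab, which makes the mutase's form of the cofactor, was at -0.00044 (-0.36 to 0.36). Of the enzymes before the mutase in propionate breakdown, Pcca was at 0.33 (-0.11 to 0.76), Pccb at -0.15 (-0.70 to 0.39) and the epimerase Mcee at -0.10 (-0.56 to 0.36).

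Thap11, the transcription factor whose motif core is shown in the Mmachc and Mtr promoters, had the smallest p of this list. It read 7.52, 7.43, 7.50 and 7.35 in H/R and 7.84, 7.69, 7.59 and 8.38 in H/R+B12, a difference of 0.43 ± 0.16 (unadjusted p = 0.0164, interval 0.089 to 0.77). The groups did not overlap, with H/R+B12 replicate 4 the highest, and without that array the difference was 0.26. Its partner Hcfc1 was at -0.20 (-0.49 to 0.080). Prdx1, a peroxidase whose gene adjoins Mmachc, was at 0.12 (-0.10 to 0.34), higher in every B12 array. Acsf3, an enzyme of mitochondrial malonate, was at -0.41 (-0.94 to 0.11), not above the negative control level over the 8 arrays. Its mean was above that level in H/R (6.36) and not in H/R+B12 (5.95).

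**Figure D4:**
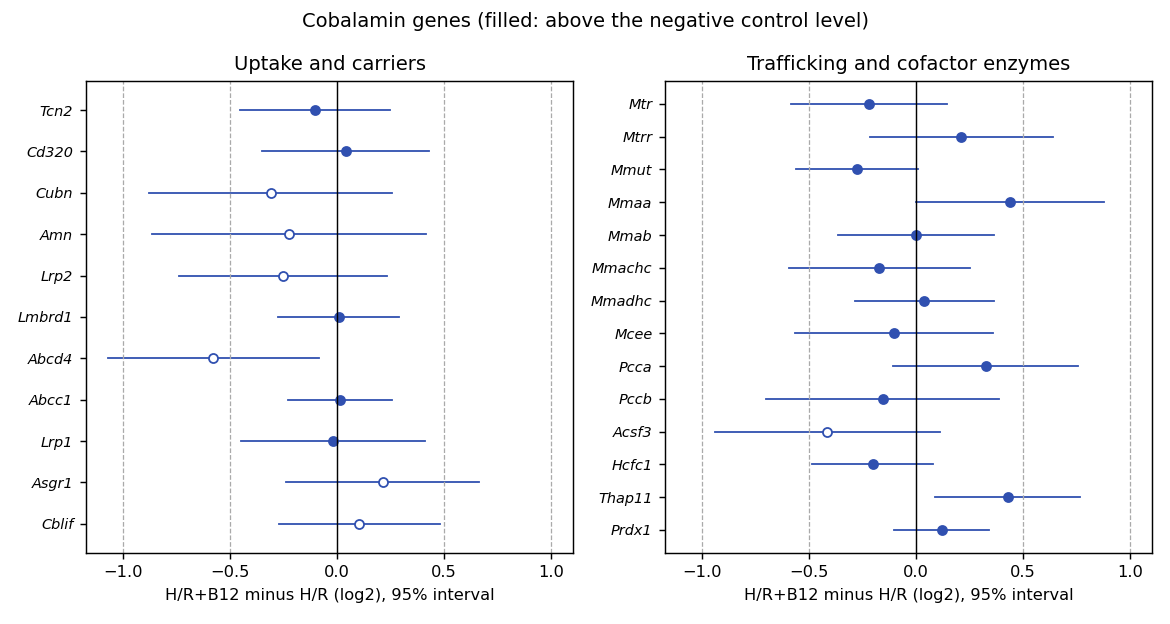
Log2 difference H/R+B12 minus H/R with its 95% interval (horizontal axis) of the 11 genes of cobalamin uptake and carriage (left) and the 14 of cobalamin trafficking and cofactor use (right); filled points are genes above the negative control level, and dashed lines mark log2 0.5 and 1 on either side. Intervals hold 0 in all but Abcd4 (-1.07 to -0.084) and Thap11 (0.089 to 0.77), and only the interval of Abcd4 reaches past log2 1.

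Around these enzymes lie the methyl cycle, which carries the methyl group from methionine synthase, and the folate enzymes that supply it. Of 17 measured genes of the methyl cycle and transsulfuration 0 had an unadjusted p under 0.05, the median was 0.144 and 15 were bounded within 2-fold. Adenosylhomocysteinase, Ahcy, was at 0.14 (-0.21 to 0.50), its relative Ahcyl1 at -0.061 (-0.35 to 0.23) and Mat2b, a subunit of methionine adenosyltransferase, at -0.14 (-0.38 to 0.10), lower in every B12 array. Choline dehydrogenase, Chdh, had the list's smallest p (0.32, -0.075 to 0.72, unadjusted p = 0.105), and Ahcyl2 was at 0.21 (-0.16 to 0.58). The transsulfuration enzyme Cth was bounded only within 2.04-fold (0.25, -0.53 to 1.03), and Cbs was at -0.092 (-0.74 to 0.55) without being above the negative control level, as was the betaine enzyme Bhmt2 at -0.35 (-1.01 to 0.31).

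Of 22 folate enzymes 0 had an unadjusted p under 0.05 and 21 were bounded within 2-fold, with a median of -0.028. Thymidylate synthase, Tyms, was at 0.28 (-0.040 to 0.59), Shmt1 at 0.23 (-0.16 to 0.61), Mtfmt, which formylates the mitochondrial starter tRNA, at 0.18 (-0.17 to 0.54) and mitochondrial Shmt2, the tightest, at -0.023 (-0.31 to 0.26). Amt of the glycine cleavage system, not above the negative control level, was the exception (0.53, -0.44 to 1.50).

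Across the 9 stress lists 218 genes were measured, and 11 had an unadjusted p under 0.05 (5.05%, beside 4.55% of all probe sets). Bounded within 2-fold were 208 (95.4%, beside 89.5%) and within 1.41-fold 115 (52.8%, beside 29.3%). These genes were brighter than most, with 184 of the 218 above the negative control level, beside 46.0% of all probe sets. Of the 184, 182 were bounded within 2-fold and 115 within 1.41-fold, beside 97.6% and 53.8% of all probe sets above that level. The heat shock list held 24 measured genes, chaperones that refold proteins and are induced by damage. Its median was 0.10, all 24 were bounded within 2-fold and 11 within 1.41-fold, and in H/R against control 11 had risen and 1 had fallen, where 8.11% of all probe sets had risen and 9.54% had fallen. Hspa1b read 12.04, 12.65, 12.09 and 12.76 in H/R and 12.54, 12.46, 13.14 and 12.66 in H/R+B12, a difference of 0.32 (-0.18 to 0.82) beside a rise of 4.35 from control to H/R. Hspa1a, a near-identical copy whose probes may not separate it from Hspa1b, was at 0.33 (-0.22 to 0.88) beside 3.84.

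The small chaperone Hspb1 read 13.82, 14.34, 14.28 and 14.49 in H/R and 14.46, 14.70, 14.67 and 14.69 in H/R+B12, a difference of 0.40 ± 0.17 (unadjusted p = 0.0366, interval 0.028 to 0.77). H/R+B12 replicate 1 was the lowest of its group and lay among the H/R arrays, so the groups overlapped. The co-chaperone Dnajb1 read 12.49, 12.66, 12.55 and 12.76 in H/R and 12.74, 12.93, 12.93 and 12.92 with B12, a difference of 0.26 (unadjusted p = 0.0468, 0.0042 to 0.52), again with replicate 1 lowest in the B12 group. The mitochondrial chaperonin Hspe1 was at 0.22 (-0.061 to 0.49) and Dnajb6, the tightest of the list, at 0.0011 (-0.27 to 0.27). The testis form Hspa1l, not above the negative control level, was at 0.31 (-0.15 to 0.76).

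Of 32 measured targets of the hypoxia-inducible factor HIF, 0 had an unadjusted p under 0.05, all 32 were bounded within 2-fold and 21 within 1.41-fold, with a median of 0.034; 19 of them had risen from control to H/R (8.11% of all probe sets had). The glucose transporter Slc2a1 read 17.92, 17.85, 17.77 and 17.69 in H/R and 17.93, 17.71, 17.89 and 17.77 in H/R+B12, a difference of 0.015 (-0.32 to 0.35) beside a rise of 3.12 after H/R. The oxidase Ero1a, which forms disulfides in the endoplasmic reticulum, read 16.90, 16.60, 16.90 and 16.34 in H/R and 16.79, 16.69, 16.87 and 16.58 with B12, a difference of 0.047 (-0.29 to 0.39) beside 4.12. In these 2 genes both ends of the B12 interval lay within 1.31-fold. The angiogenic factor Vegfa was at -0.24 (-0.62 to 0.14), the demethylase Kdm3a at -0.22 (-0.49 to 0.054), lower in every B12 array, and the glycolytic enzyme Aldoa at 0.0091 (-0.23 to 0.25). Pfkfb4, which sets the rate of glycolysis (-0.34, -0.97 to 0.28), and the lactate exporter Slc16a3 (0.30, -0.25 to 0.85) were not above the negative control level.

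The ATF4 and integrated stress response, which slows translation and raises amino acid supply, held 28 measured genes with a median of -0.046 and 21 rises after H/R, beside 8.11% of all probe sets. Atf3 read 10.86, 10.95, 10.91 and 11.29 in H/R and 10.82, 10.94, 11.47 and 11.45 in H/R+B12, a difference of 0.17 (-0.25 to 0.59) beside a rise of 3.64. The groups overlapped. The master factor Atf4 was at -0.031 (-0.35 to 0.29), Ddit3, which encodes the death-linked factor CHOP, at -0.10 (-0.45 to 0.25), the pseudokinase Trib3 at -0.30 (-0.84 to 0.25) and Atf5 at -0.36 (-0.78 to 0.064), lower in every B12 array.

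Sesn2, an ATF4 and p53 target that restrains the growth kinase mTORC1, stood farthest out among the stress genes. It read 7.74, 7.58, 7.96 and 7.64 in H/R and 8.17, 8.63, 8.94 and 9.07 in H/R+B12, a difference of 0.97 ± 0.32 (unadjusted p = 0.00733, adjusted p = 1 by limma, interval 0.30 to 1.65). The groups did not overlap. H/R had raised it by 1.30 from control, and in normal culture it differed by -0.20 ± 0.32 with B12. The interaction was 1.17 ± 0.45 (unadjusted p = 0.0191, adjusted p = 0.972 by limma). It contains the same H/R difference for which Sesn2 was picked, so it is not separate evidence. The arginine transporter Slc7a3 was at -0.73 (unadjusted p = 0.00939, -1.25 to -0.20) at a signal not above the negative control level, as was the phosphatase subunit Ppp1r15a at 0.39 (-0.15 to 0.93). Slc3a2, the heavy chain of amino acid exchangers, was the tightest at -0.013 (-0.30 to 0.27), and 25 of the 28 genes were bounded within 2-fold.

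All 19 unfolded protein response genes were bounded within 2-fold and 14 within 1.41-fold, with a median of -0.0083. The chaperone Hspa5 read 16.94, 17.16, 17.07 and 17.10 in H/R and 16.97, 17.07, 17.02 and 17.06 in H/R+B12, a difference of -0.032 (-0.27 to 0.21). The calcium-binding chaperone Calr had the tightest bound of any stress list, 1.17-fold (-0.0055, -0.23 to 0.22). The 3 sensors of the response were looser: Eif2ak3 at 0.33 (-0.026 to 0.68), Atf6 at -0.25 (-0.53 to 0.035) and Ern1 at 0.28 (-0.12 to 0.68). The ubiquitin ligase Syvn1, which marks misfolded proteins for removal, was at 0.16 (-0.18 to 0.51).

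Genes of oxidant defence were listed too, and whether cobalamin reacted with superoxide in these cells was not measured. Of 21 superoxide and peroxide enzymes 2 had an unadjusted p under 0.05 (9.52%, beside 4.55% of all probe sets). Bounded within 2-fold were 19 and within 1.41-fold 10, and the median was -0.019. Cytosolic superoxide dismutase, Sod1, read 14.75, 14.86, 14.89 and 14.88 in H/R and 15.06, 15.18, 15.30 and 14.95 in H/R+B12, a difference of 0.28 ± 0.13 (unadjusted p = 0.0434, interval 0.0093 to 0.55), beside -0.65 after H/R. Gpx4, which reduces lipid peroxides, read 13.52, 13.39, 13.49 and 13.46 in H/R and 13.67, 13.74, 13.56 and 13.90 with B12, a difference of 0.25 (unadjusted p = 0.153, -0.10 to 0.60), beside -0.83. The groups did not overlap in either gene. Among the 21 enzymes there was no overlap in 4, Sod3 among them, beside 637 of all 22206 probe sets (2.87%). Sod3, the secreted form, was at 0.67 (unadjusted p = 0.0268) at a signal not above the negative control level, mitochondrial Sod2 at 0.021 (-0.32 to 0.36), mitochondrial Prdx3 at -0.22 (-0.54 to 0.10) and Gpx1, the tightest, at 0.0016 (-0.25 to 0.25).

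NRF2 targets, the inducible antioxidant and detoxifying genes, had a median of 0.026, and 24 of 25 were bounded within 2-fold and 16 within 1.41-fold. Heme oxygenase, Hmox1, read 12.49, 12.17, 12.38 and 12.40 in H/R and 12.42, 12.17, 12.70 and 12.40 in H/R+B12, a difference of 0.061 (-0.26 to 0.39) beside a rise of 1.35. The ferritin heavy chain Fth1 was bounded within 1.19-fold (0.026, -0.20 to 0.25). Aldh3a1 was the 1 member with an unadjusted p under 0.05 (0.50, unadjusted p = 0.0118), at a signal not above the negative control level, and Gsta2, also at such a signal, had the loosest bound (0.51, -0.24 to 1.26). Osgin1 was at -0.35 (-0.91 to 0.21) and the carbonyl reductase Cbr3, not above the negative control level, at -0.28 (-0.63 to 0.075).

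Metallothioneins bind zinc and copper and are induced by metals and oxidants. Of 10 measured genes of the metal response 8 were bounded within 2-fold, and the median was 0.019. Mt1 was at -0.10 (-0.39 to 0.20), while Mt2, the other main metallothionein, read 16.25, 15.46, 15.77 and 15.87 in H/R and 15.29, 15.19, 15.20 and 15.56 with B12, a difference of -0.53 (-1.32 to 0.26) that left a change of up to 2.49-fold possible. The groups overlapped. Mt3 (0.39, unadjusted p = 0.0334), Mt4 (0.41) and the manganese exporter Slc30a10 (0.18) were not above the negative control level, and the metal importer Slc39a14, the tightest, was at 0.063 (-0.26 to 0.39).

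The immediate early genes answer growth factors and stress within minutes, and as a list they had the loosest median bound of the stress lists (log2 0.74), with 9 of 37 within 1.41-fold and 35 within 2-fold. Their median was 0.12. Egr1 read 10.76, 10.24, 11.17 and 11.55 in H/R and 10.69, 11.43, 11.74 and 11.39 in H/R+B12, a difference of 0.38 (-0.19 to 0.95) beside a rise of 1.35. Ier5 was at 0.39 (0.026 to 0.75, unadjusted p = 0.0373), Ier2 at -0.39 (-0.81 to 0.026), Myc, the tightest, at 0.026 (-0.25 to 0.30), and Fos, not above the negative control level, at 0.25 (-0.31 to 0.80). Nor were Fosb (0.42), Nr4a1 (0.47) and Egr3 (-0.49, unadjusted p = 0.0223) above it. The mean of Nr4a1 was above it in H/R+B12 (6.43) and not in H/R (5.96). Among 25 p53 targets and DNA damage genes the median was -0.0039, 17 were bounded within 1.41-fold and 24, all but Sesn2, within 2-fold. The cell cycle inhibitor Cdkn1a read 16.62, 16.61, 16.89 and 16.72 in H/R and 16.73, 16.87, 16.63 and 16.72 with B12, a difference of 0.027 (-0.22 to 0.28) beside a rise of 1.63, and the nuclease Aen was at 0.33 (unadjusted p = 0.0498, 0.00034 to 0.67). The damage sensor Ddb2 was at 0.32 (-0.077 to 0.71) and the bypass polymerase Polk at -0.17 (-0.46 to 0.12).

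Of 82 measured cell death genes 1 had an unadjusted p under 0.05 (1.22%, beside 4.55% of all probe sets), 77 were bounded within 2-fold (93.9%) and 35 within 1.41-fold. The death receptor Fas, which starts apoptosis when bound by its ligand, read 12.02, 12.41, 11.83 and 11.92 in H/R and 12.04, 12.30, 11.96 and 11.99 in H/R+B12. Its difference was 0.028 (-0.39 to 0.45), where H/R had raised it by 4.09 from control. The groups overlapped, with H/R replicate 2 the highest of the 8 arrays. The other death receptor described here, Tnfrsf10b, was at -0.085 (-0.47 to 0.30).

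In the Bcl2 family, which sets whether mitochondria release cytochrome c, 17 of 18 measured genes were bounded within 2-fold and the median was 0.025. The survival protein Bcl2l1 read 15.28, 15.43, 15.40 and 15.25 in H/R and 15.42, 15.34, 15.34 and 15.29 in H/R+B12, a difference of 0.0062 (-0.23 to 0.24). Mcl1, a short-lived survival protein, was at 0.025 (-0.27 to 0.32), and the survival protein Bcl2l2 at 0.23 (-0.19 to 0.65). Among killers, Bid read 10.16, 10.13, 10.24 and 10.56 in H/R and 10.09, 9.97, 10.05 and 9.90 with B12, lower in every B12 array (-0.27, unadjusted p = 0.0747, -0.57 to 0.030). Bad was at 0.36 (-0.19 to 0.92), Bbc3, not above the negative control level, at 0.047 (-0.62 to 0.71), and Bok had the loosest bound (-0.50, -1.29 to 0.29).

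Of 31 caspases, death receptors and their adaptors 28 were bounded within 2-fold and 16 within 1.41-fold, with a median of 0.046. The initiator Casp8 was bounded within 1.21-fold (0.041, -0.19 to 0.27). Casp2 read 11.61, 11.61, 11.58 and 11.75 in H/R and 11.19, 11.33, 11.34 and 11.52 in H/R+B12 (-0.29, -0.65 to 0.067), and Traf2, an adaptor of TNF receptors, read 11.01, 10.95, 10.88 and 11.00 and 11.40, 11.28, 11.05 and 11.05 (0.24, -0.079 to 0.56). The groups did not overlap in these 2 genes, and their unadjusted p-values were 0.104 and 0.131. Diablo, which frees caspases from their inhibitors, was at 0.35 (-0.060 to 0.77), and the TNF receptor Tnfrsf1b, not above the negative control level, at -0.56 (unadjusted p = 0.0197, -1.02 to -0.10). The nuclease Dffb, also not above it, had the loosest bound (0.40, -0.43 to 1.23).

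All 13 necroptosis and pyroptosis genes were bounded within 2-fold. The necroptosis effector Mlkl was at 0.018 (-0.28 to 0.32), the kinase before it, Ripk3, at 0.076 (-0.48 to 0.64), and Ppif, a part of the mitochondrial permeability pore, at 0.16 (-0.25 to 0.57). The deubiquitinase Cyld was at -0.12 (-0.48 to 0.24). Ripk3, like Il1b (0.28) and Nlrp3 (0.24), was not above the negative control level. Of 20 ferroptosis genes, which govern iron-driven lipid peroxidation, 19 were bounded within 2-fold. The cystine transporter Slc7a11 read 7.94, 7.52, 7.90 and 7.88 in H/R and 6.85, 7.66, 7.32 and 7.94 in H/R+B12, a difference of -0.36 (-0.96 to 0.23) beside a rise of 2.05. The groups overlapped, with H/R+B12 replicate 1 the lowest array. The iron exporter Slc40a1 was at 0.23 (-0.052 to 0.52), and the lipoxygenases Alox12 (-0.23) and Alox15 (0.25) were not above the negative control level.

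Inflammation genes were 110 measured, with 4 at an unadjusted p under 0.05 (3.64%, beside 4.55% of all probe sets), 101 bounded within 2-fold (91.8%) and 39 within 1.41-fold. Among NF-κB subunits and regulators the median was 0.021 and 18 of 20 were bounded within 2-fold. The subunit Rela was bounded within 1.21-fold (-0.019, -0.28 to 0.24). Nfkb2 read 11.16, 11.30, 11.37 and 11.10 in H/R and 11.40, 11.42, 11.48 and 11.47 in H/R+B12, a difference of 0.21 (-0.12 to 0.55, unadjusted p = 0.198), and each B12 array was above every H/R array. The inhibitor Nfkbia was at 0.079 (-0.30 to 0.46), and the adaptor Myd88 read 8.67, 8.79, 9.24 and 8.52 in H/R and 8.57, 9.23, 7.89 and 7.85 with B12 (-0.42, -1.01 to 0.17), with B12 replicates 3 and 4 the lowest. The subunit Rel was at -0.20 (-0.54 to 0.13). Irak3, which damps this pathway, was at -0.57 (unadjusted p = 0.0169) without being above the negative control level.

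Cytokines and chemokines, 34 measured and 17 of them above the negative control level, had a median of 0.011, and 32 were bounded within 2-fold. Cxcl10, a chemokine for T cells, read 10.46, 10.45, 10.74 and 10.53 in H/R and 10.26, 10.68, 10.62 and 10.62 in H/R+B12, a difference of -0.0032 (-0.42 to 0.42) beside a rise of 2.68. Lif, a cytokine of the interleukin-6 family, read 12.87, 13.09, 13.34 and 13.40 in H/R and 13.00, 13.16, 13.03 and 13.15 with B12, a difference of -0.090 (-0.41 to 0.23) beside 2.53. The groups overlapped in both. Ccl2, a chemokine for monocytes, was at -0.031 (-0.45 to 0.39), the neutrophil chemokine Cxcl1 at 0.025 (-0.38 to 0.43), the membrane-bound chemokine Cx3cl1 at -0.23 (-0.63 to 0.17) and Csf1, the tightest, at -0.046 (-0.27 to 0.18). Il6 (-0.23, -0.79 to 0.33), Tnf (0.30, -0.041 to 0.64), Il1a (0.25) and Csf3 (0.71, 0.041 to 1.37, unadjusted p = 0.0388) were not above the negative control level, so the data say little of their RNA.

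Of 26 inflammatory enzymes, receptors and adhesion genes 23 were bounded within 2-fold and 10 within 1.41-fold, with a median of -0.014. Nos2, the inducible nitric oxide synthase, read 14.01, 13.91, 14.28 and 14.04 in H/R and 14.24, 14.26, 13.96 and 14.00 in H/R+B12, a difference of 0.054 (-0.32 to 0.43) beside a rise of 3.23. The prostaglandin synthase Ptgs2 was at 0.13 (-0.43 to 0.68) beside 1.79, and Lcn2, a tubule injury protein, at -0.0079 (-0.29 to 0.28). The adhesion molecule Vcam1 was at -0.23 (-0.71 to 0.24) and the TNF-induced Tnfaip2 at 0.21 (-0.10 to 0.53). The bacterial lipoprotein receptor Tlr1 was at -0.89 ± 0.29 (unadjusted p = 0.00665, -1.50 to -0.28), with H/R+B12 replicate 1 among the H/R arrays, and was not above the negative control level. Tlr6, its relative, was at -0.45 (-1.18 to 0.28), also not above that level. Nor were the adhesion molecule Icam1 (-0.094, -0.51 to 0.33) and the injury marker Havcr1 (-0.13, -0.61 to 0.36).

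The interferon-stimulated genes had a median of 0.115, with 28 of 30 bounded within 2-fold and 12 within 1.41-fold. Ifi35 read 7.32, 7.18, 7.17 and 6.58 in H/R and 7.54, 7.39, 7.56 and 7.57 in H/R+B12, a difference of 0.45 ± 0.16 (unadjusted p = 0.0136, interval 0.11 to 0.80), with no overlap. Rsad2, an antiviral enzyme, read 6.07, 6.64, 6.68 and 6.50 in H/R and 7.26, 6.97, 7.62 and 5.84 with B12, and the spread among the B12 arrays left its bound at 2.19-fold (0.45, -0.23 to 1.13). B2m, the light chain of class I antigen-presenting molecules, was bounded within 1.20-fold (-0.031, -0.26 to 0.20), and the signal factor Stat2 was at -0.24 (-0.57 to 0.087). The RNA sensor Ifih1 was at 0.31 (-0.081 to 0.70), and Oas3, not above the negative control level, at -0.31 (-0.72 to 0.095).

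**Figure D5:**
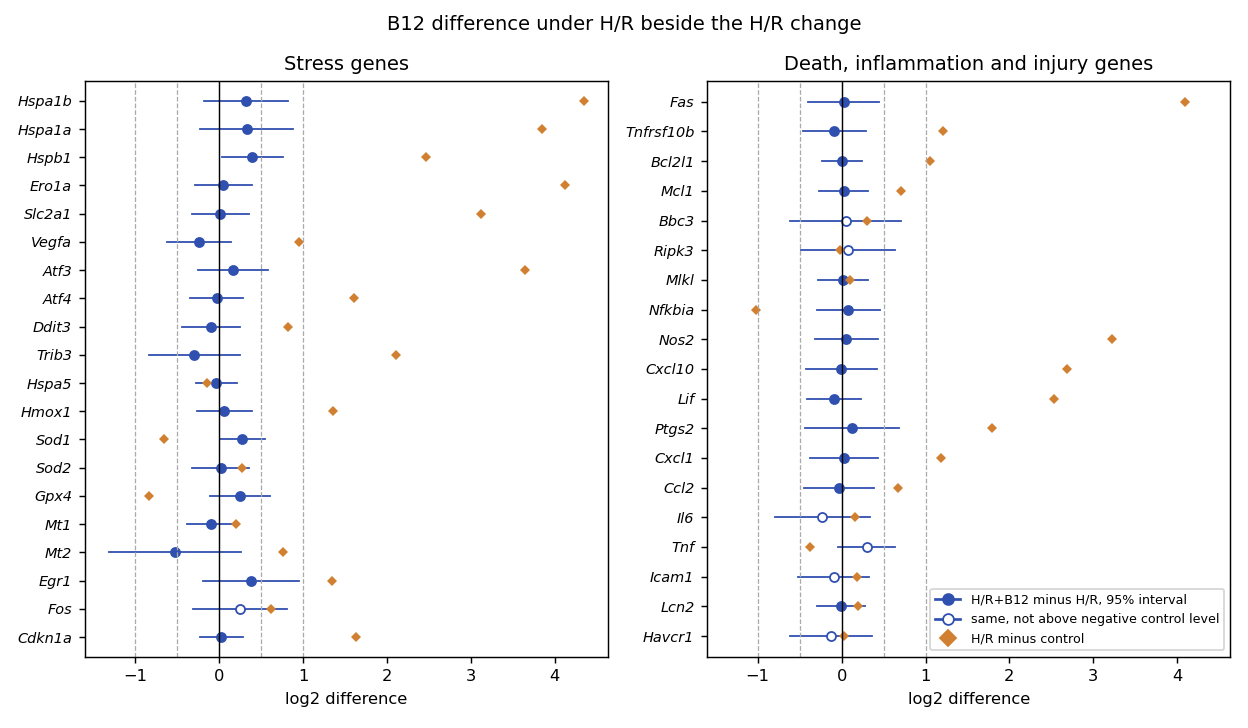
Log2 difference H/R+B12 minus H/R with its 95% interval (blue; filled where the gene is above the negative control level) and the log2 difference H/R minus control (orange diamonds) for 20 stress genes (left) and 19 death, inflammation and injury genes (right); both share the 4 H/R arrays. Fas stands at 4.09 after H/R with a B12 interval of -0.39 to 0.45, Ero1a at 4.12 with -0.29 to 0.39 and Nos2 at 3.23 with -0.32 to 0.43.

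The same vitamin in normal culture and the interaction give the last comparisons. In control+B12 against control 0 probe sets passed (0%; smallest adjusted p = 0.717 by limma), and 1280 had an unadjusted p under 0.05 (5.76%). For the interaction, which tests whether the B12 difference itself differs between H/R and normal culture, 0 passed (0%; smallest adjusted p = 0.803 by limma) and 1071 had an unadjusted p under 0.05 (4.82%). These B12 comparisons have no arrays in common, and across 22206 probe sets their log2 differences correlated at r = 0.0188 (0.0666 over the 10209 above the negative control level), given as a description. 38 probe sets had an unadjusted p under 0.05 with the same sign in both, which is 3.76% of the 1010 under H/R and 2.97% of the 1280 in normal culture, and 48 had opposite signs.

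The interaction had its smallest p-values, which did not pass, in Mfsd5, a molybdate transporter, Dtd1, Cercam, Adam30 and the RNA exosome subunit Exosc9. Mfsd5 differed by 0.71 under H/R and -0.66 in normal culture (interaction 1.37 ± 0.26, adjusted p = 0.803 by limma), and Exosc9 by 0.37 and -0.38 (interaction 0.74 ± 0.17). Dtd1 had an interaction of 1.07 ± 0.21, also at an adjusted p of 0.803 by limma. Cercam (-0.53 and 0.59) and the testis gene Adam30 (0.20 and -1.03) were not above the negative control level. In normal culture the smallest p-values were those of 5 genes not above the negative control level, Tmcc2 (1.00), Adam30, Ankar (0.93), Dennd6b (0.94) and Klhl30 (-0.70), and under H/R the same genes differed by 0.060, 0.20, -0.026, -0.079 and 0.14.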

How the data were processed

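Arrays of 16 BU.MPT samples were used, 4 per group, from 1 table of the series. The values are log2 signal per probe set, made by the authors with RMA in Affymetrix Expression Console and compared by them in the Transcriptome Analysis Console, per the submitters' processing notes (versions not given in the sources used here). RMA sets all arrays to 1 distribution, which can hide an overall shift. Of the 22206 probe sets tested, 19572 carried 1 gene symbol, 0 several and 2634 none, and 6640 control features were left out. For a gene with several probe sets the one with the highest mean over 16 arrays was used. All 16 arrays were fitted in limma 3.58.1 (R 4.3.3) with 4 group means and moderated variances (4.23 prior and 16.2 total degrees of freedom). Two-sided p-values were adjusted over all tested probe sets after Benjamini and Hochberg, and 0.05 was the threshold. Intervals are 95% intervals of this fit, for each probe set alone, and they are not adjusted for the number of probe sets. The fit was tested on simulated data. Figures were drawn in matplotlib 3.10.9 under Python 3.11.15.

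The members and gene lists were chosen with earlier results of these data known. Named are the 5 smallest p-values in each direction (predicted genes, small RNA genes, olfactory and vomeronasal receptors and unnamed probe sets passed over), in each list up to 4 members with the smallest p and those with the tightest and loosest bound, 72 genes named in any case, and the 5 smallest p-values of the other B12 comparison and of the interaction. Of the 72, 5 were not analysed here. Alternatives were a replicate block, fits of the compared arrays only, weighted arrays, robust variances with an intensity trend, a filter on the dimmest 25%, quantile normalization, median centring, 1 probe set per gene, each array left out in turn, an adjusted p under 0.1, and a rule of 2-fold change at an unadjusted p under 0.05. A test of probe sets above the negative control level alone and a negative control covariate were added after seeing the data. Depth on arrays is signal over background, and 4 arrays per group limit the precision.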

Additional observations from a re-analysis of the deposited data

Results flagged for a closer look

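Among 346 groups of 4 arrays examined for 1 array far from the other 3, 17 (4.91%) held such an array, and chance gives about 1 in 20. In H/R these were replicate 1 for Havcr1 (high, 4.30) and Cd320 (low, 8.62), replicate 2 for Slc7a11 (low, 7.52), replicate 3 for Atf5 (high, 9.09), B2m (high, 18.4), Atf4 (high, 15.8) and Rpp25l (low, 4.52), and replicate 4 for Ahcyl1 (low, 15.6). In H/R+B12 they were replicate 1 for the heat shock genes Hspb1 (low, 14.5) and Dnajb1 (low, 12.7) and for Cxcl10 (low, 10.3), replicate 2 for Prdx3 (high, 10.6) and Tlr6 (high, 4.41), replicate 3 for Dnajb6 (low, 15.02) and Amn (high, 4.66), and replicate 4 for Ddb2 (low, 7.52) and Stat2 (low, 10.6). The values are log2 signals. H/R+B12 replicate 1 was low in both Hspb1 and Dnajb1.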

How the results depend on the processing

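The count of 0 probe sets called with B12 under H/R was the same under all alternatives tried but these: 20 probe sets met the rule of a 2-fold change at an unadjusted p under 0.05, and the fits without 1 of the 8 arrays gave 0 to 1, the 1 being Nudt11 without H/R replicate 1. The smallest adjusted p by limma ranged from 0.0166 to 0.947. When only probe sets above the negative control level were fitted, a setting added after seeing the data, it was 0.0592 by limma. That is near the threshold of 0.05 and under the looser one of 0.1. With a replicate block 0 were called, and 29.1% and 89.6% of probe sets were bounded within log2 0.5 and log2 1. Deviations of H/R and H/R+B12 samples of the same replicate number correlated at -0.011 to 0.079, and replicate 4 alone correlated best with its own number. The negative control median, however, was highest in replicate 1 in every group (6.10 in control, 6.08 in control+B12, 6.23 in H/R and 6.17 in H/R+B12). Whether samples of the same number were handled together is not known. Bounded within log2 0.5 were 59.99% when only probe sets above the negative control level were fitted, which changes the probe sets counted, and 22.4% to 24.0% without 1 array, when 84.3% to 85.6% lay within log2 1. In normal culture leaving out each array in turn gave 0 to 1 called probe sets (1 without control replicate 2), and the interaction gave 0 throughout. Of the 171 named genes 44 changed sign in some alternative. Signal over background limits the 114 list genes that were not above the negative control level.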

Other observations

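Other gene groups of the tubule cell were also bounded with B12 under H/R. Of 43 oxidative phosphorylation subunits, 26 of which had fallen from control to H/R (9.54% of all probe sets had), 0 had an unadjusted p under 0.05 and all 43 were bounded within 2-fold (median difference 0.042). Of 29 S phase genes and 28 genes of G2 and M phase, all were bounded within 2-fold as well, with medians of 0.024 and -0.025. Of 19 cholesterol synthesis genes, 15 of which had risen after H/R (8.11% of all probe sets had), 13 were bounded within 1.41-fold and all within 2-fold, and their differences ran from -0.15 to 0.18. Of 25 tubule injury markers 24 were bounded within 2-fold, with a median of 0.033. H/R against control shares the H/R arrays with these differences.

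Estimates of at least 2-fold with a mean over the 8 arrays above the negative control level (6.23), chosen after their values were seen, were those of Pstpip1, Lrrc75a, Rita1 and an unnamed probe set. Rita1 was above this level only through the B12 arrays, the unnamed probe set only through the H/R arrays and Pstpip1 and Lrrc75a in both groups. Rita1, a tubulin-binding regulator of Notch signalling, read 5.87, 5.78, 6.09 and 5.37 in H/R and 7.08, 6.03, 7.04 and 7.30 in H/R+B12, a difference of 1.08 ± 0.29 (adjusted p = 1.00 by limma). Lrrc75a read 6.91, 7.48, 7.03 and 7.67 in H/R+B12 and at most 6.63 in H/R, a difference of 1.01 ± 0.27 (adjusted p = 1.00 by limma). The groups did not overlap in Lrrc75a and overlapped in Rita1.

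The unnamed probe set had the widest bound (log2 7.57) of those above the negative control level. It read 4.68, 9.77, 11.58 and 7.14 in H/R and 4.34, 6.18, 2.86 and 5.76 in H/R+B12, a difference of -3.51 ± 1.92 (unadjusted p = 0.0856). In normal culture it read 4.24, 6.08, 13.78 and 11.56 without B12 and 4.70, 4.18, 8.98 and 2.26 with it.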
